A study of Mus musculus with 2 samples.

Results

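The MHC class II presentation genes are H2-Aa, H2-Ab1, H2-Eb1, H2-Eb2, Cd74, H2-DMa, H2-DMb1, H2-DMb2, H2-Ob and Ciita. They were chosen by symbol and not by a cut on their values, though with earlier results of these data known. All 10 were found once each among the 32285 genes of the deposited count matrices. They were examined cell by cell in 2 droplet RNA-seq libraries of dorsal meningeal tissue of male C57BL/6 mice (C57BL/6J in the methods), 1 from mice given a Sham procedure and 1 from mice given a TBI (traumatic brain injury), a mild closed-skull impact. The meninges were taken 1 week after the procedure and those of 5 mice were pooled for each library, and the labels give the age as 10 weeks in one field and as 10 to 12 weeks in another. Per the methods, the dissected tissue lay away from the site of impact, Sham mice received the same anaesthesia and handling without the impact, and live single cells were sorted before loading. With 1 pooled library in each group there is no replicate error between mice, so no comparison below carries a p-value. The intervals are exact 95% intervals on counts of unique molecular identifiers (UMIs, each standing for 1 captured transcript) or of cells, and they cover counting error only.

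MHC class II molecules display peptides from the endosomal pathway to CD4+ T cells. H2-Aa and H2-Ab1 encode the alpha and beta chains of the I-A molecule, H2-Eb1 encodes the beta chain of I-E, and H2-Eb2 encodes a less well studied beta chain related to it. Counts of transcripts do not show whether an I-E molecule forms in these mice. Cd74, the invariant chain, fills the peptide groove until proteases cut it away, after which the H2-DM heterodimer (H2-DMa with H2-DMb1 or H2-DMb2) exchanges the remaining fragment for peptide. H2-DO, of which H2-Ob is the beta chain, holds H2-DM in check, and Ciita is the master regulator that switches the whole set on. Dendritic cells, macrophages and B cells are the classical professional antigen-presenting cells, and the border tissues around the brain are known to hold all of them.

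In the GRCm38 build, 8 of the 10 genes lie within a single stretch of chromosome 17. From the left these are H2-DMa (start 34119541), H2-DMb2 (34143307), H2-DMb1 (34153072), H2-Ob (34238903), H2-Ab1 (34257689), H2-Aa (34282744), H2-Eb1 (34305867) and H2-Eb2 (34325665, ending at 34341412). H2-Aa is on the minus strand and the other 7 are on the plus strand. Ciita lies on chromosome 16 (10480059 to 10528418) and Cd74 on chromosome 18 (60803848 to 60812652), both on the plus strand.

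H2-DMb1 and H2-DMb2 are neighbouring copies of one gene, which matters for their counts. Of the 403 possible stretches of 98 bases in the last 500 bases of the reference transcript of H2-DMb1, 44 (10.9%) were also found in H2-DMb2, and 0 of 403 the other way round. Some molecules of the pair could therefore have gone unassigned or to the other gene, and their levels are uncertain to that extent. No such stretch was shared between H2-Eb1 and H2-Eb2.

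The promoters of 6 of the chromosome 17 genes are shown because their genes differ so widely in which cells carried them, as described below. Upstream of the RefSeq starts, 5 of them share a layout of letters, while H2-Aa holds only the Y box letters of those searched. Each line gives 63 bases of RefSeq sequence of the GRCm38.p6 assembly, read 5′ to 3′ on the strand of the gene. Capitals mark the Y box letters GATTGG, the letters CCTAGNNAC of the X box, and AACNNATG. The last is a run of letters that overlaps the end of CCTAGNNAC and was picked after the sequences had been read.
H2-Aa: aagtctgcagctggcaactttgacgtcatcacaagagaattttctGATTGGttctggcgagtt
H2-Eb1: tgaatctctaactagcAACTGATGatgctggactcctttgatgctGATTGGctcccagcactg
H2-Eb2: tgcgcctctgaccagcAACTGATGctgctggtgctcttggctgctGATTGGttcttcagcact
H2-DMb1: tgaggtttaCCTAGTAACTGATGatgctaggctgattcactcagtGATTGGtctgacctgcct
H2-DMb2: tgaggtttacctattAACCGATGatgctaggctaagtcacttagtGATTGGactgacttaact
H2-Ob: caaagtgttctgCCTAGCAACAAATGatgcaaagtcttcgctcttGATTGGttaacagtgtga
The windows lie at chr17:34287855-34287917 (minus strand), chr17:34305762-34305824, chr17:34325529-34325591, chr17:34153084-34153146, chr17:34145113-34145175 and chr17:34238802-34238864, in that order. They are placed from RefSeq starts, which for some genes, among them H2-DMb1 and H2-DMb2, differ from the gene starts listed above. The windows of H2-DMb1 and H2-DMb2 therefore lie inside the gene bounds that begin at those listed starts. In the binding sites of class II promoters the X box is occupied by the RFX complex and the Y box by NF-Y, and Ciita docks on the assembled factors without touching the DNA itself.

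Each window was placed around the Y box letters, so all 6 hold them by construction. Searched on both strands, these letters were in 16.1% of the 32851 mouse promoters searched (250 bases before to 50 bases after each start). The X box letters were found in H2-DMb1 and H2-Ob and in 3.91% of all promoters, and AACNNATG was found in 8.86%. AACNNATG followed 10 to 30 bases later by GATTGG was much rarer, with 25 promoters (0.0761%) of 25 genes. Of these genes 5 were H2-Eb1, H2-Eb2, H2-DMb1, H2-DMb2 and H2-Ob. Since AACNNATG was picked after these sequences had been read, so was the combination. The 5 hits therefore describe the sequences and are no independent evidence of a shared site. The windows of H2-DMb1 and H2-DMb2 had the same base at 54 of 63 positions, those of H2-Eb1 and H2-Eb2 at 41 of 63. H2-DMa, which has 2 starts in the table, had the Y box letters at 1 of them and AACNNATG at neither. Its Y box letters lay at -199 bases, too far out for a window, so H2-DMa is not shown. A match of letters describes the sequence and does not show that a factor binds there. Only exact letters were searched, so a missing match does not show that a promoter lacks an X box.

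The filters left 2043 Sham cells and 3773 TBI cells, with a median of 2764 and 2663 UMIs per cell. Cells were clustered with the class II genes left out, and 25 of 27 clusters were named from marker genes, giving 19 classes, each called "-like" because it rests on markers alone. Genes that vary together with the class II genes, such as Ctss, still took part in the clustering, so the levels by class are a description. The libraries shared 20 barcodes, 14 of them among the filtered cells. A class called dendritic-like below is the cluster marked by Cd209a, Flt3 and Plbd1, which also holds a smaller group with the type 1 markers Xcr1 and Clec9a. Levels below are in CPM, the UMIs of a gene scaled to the total of all UMIs of a class. Over all filtered cells the 10 genes together had 38173 CPM in the Sham library and 34605 CPM in the TBI library. Since the kit reads 3′ ends, the level of a gene is compared across classes of cells and not with that of another gene.

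H2-Aa, the alpha chain of I-A, ordered the classes in the same way in both libraries at the top. Dendritic-like cells came first, with 15261 CPM in Sham (15055 to 15470) and 16126 in TBI (15931 to 16322). Macrophage-like cells followed with 11876 and 12031 CPM, and migratory dendritic-like cells, marked by Ccr7 and Ccl22, with 10456 and 8303 CPM. These 3 levels had separate intervals in each library. The proliferating-like cells, which carry cell cycle genes and can be of any lineage, were next with 7303 and 4405 CPM. B-like cells carried much less, with 3406 CPM in Sham and 3532 in TBI, and monocyte-like (3029 and 3684) and plasmacytoid dendritic-like cells (2603 and 3382) stood close to them. The intervals of B-like cells overlapped with both of these in TBI, and those of monocyte-like and plasmacytoid dendritic-like cells overlapped in Sham. The monocyte-like level is carried by few cells, since 5 cells held 89.7% of that class's class II UMIs in Sham and 77.4% in TBI. Immature B-like cells, marked by Rag1 and Igll1, had 111 and 171 CPM. This was no more than the 175 (131 to 229) and 343 (259 to 445) CPM in removed barcodes dominated by hemoglobin. Those barcodes, a gauge of free RNA, were scaled to their UMIs other than hemoglobin, while a cell's total includes its own RNA. By droplet, at unequal depths, 20.4% and 21.4% of immature B-like cells had an H2-Aa UMI, against 8.90% and 13.6% of the barcodes.

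**Figure D1:**
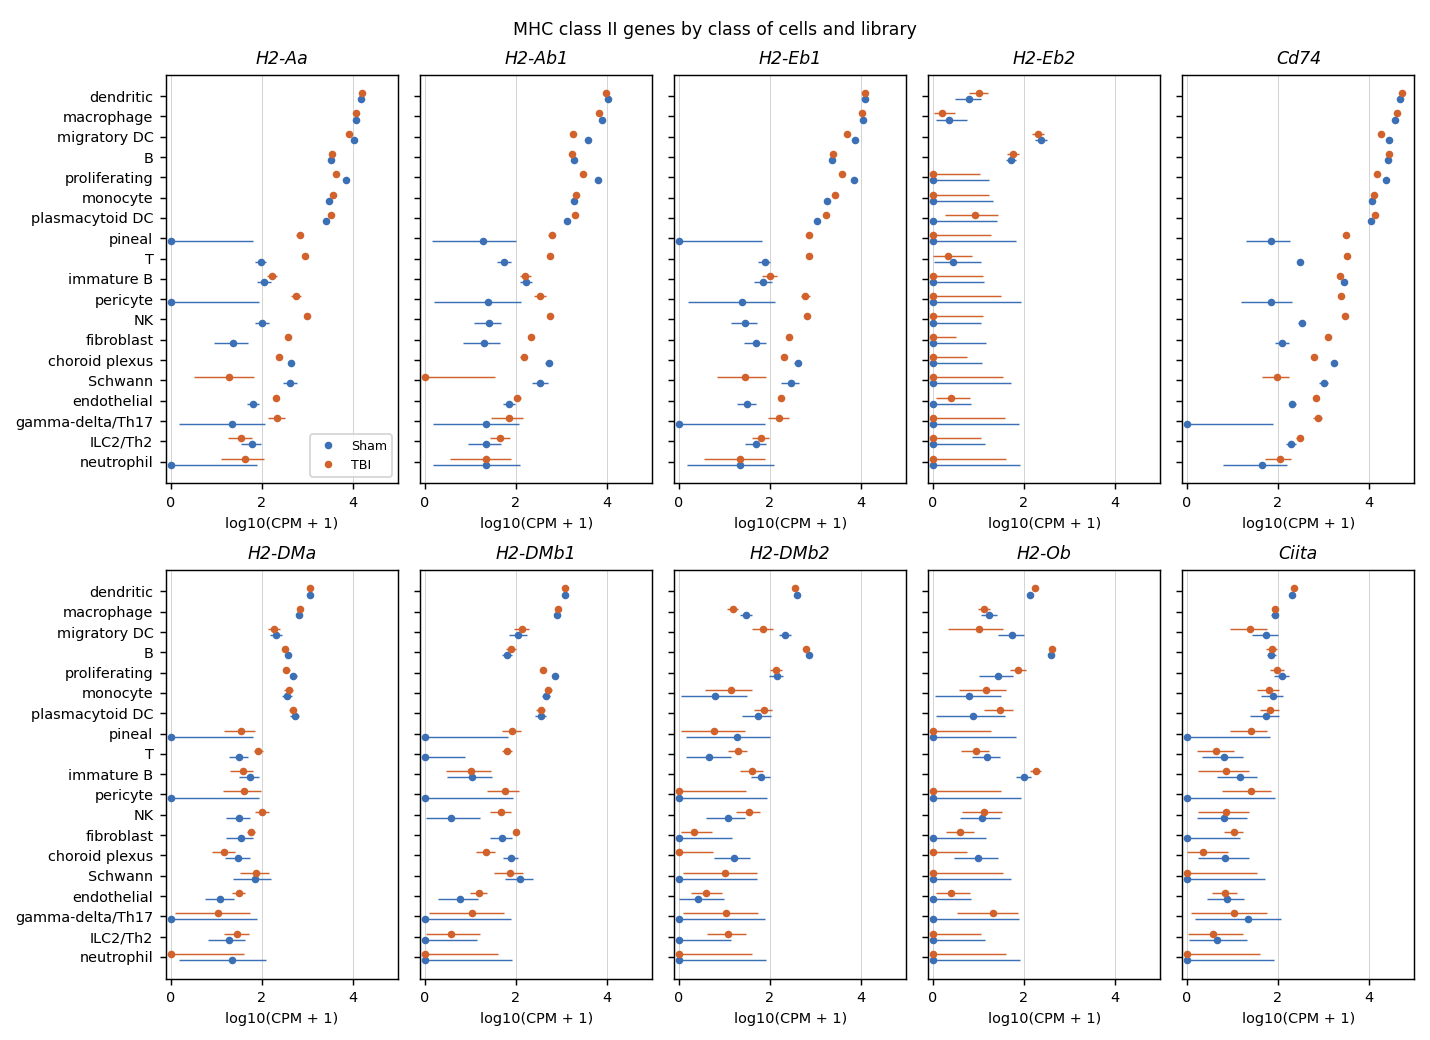
Each panel plots 1 gene as log10(CPM + 1) in each of the 19 classes, ordered by the summed level of all 10 genes, with Sham in blue, TBI in orange and bars for the 95% counting interval. H2-Aa, H2-Ab1, H2-Eb1, Cd74, H2-DMa and H2-DMb1 fall from dendritic-like and macrophage-like cells downward, while H2-Eb2 peaks in migratory dendritic-like cells (236 and 209 CPM) and H2-Ob and H2-DMb2 in B-like cells.

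The beta chain genes H2-Ab1 and H2-Eb1 kept the order of dendritic-like above macrophage-like above B-like cells. The level of H2-Ab1 was 10682 CPM (Sham) and 9415 CPM (TBI) in dendritic-like cells, at 7878 and 6911 in macrophage-like cells, and at 1914 and 1751 in B-like cells. H2-Eb1 stood at 12271 and 12502 CPM in dendritic-like cells, 10917 and 10757 in macrophage-like cells and 2375 and 2474 in B-like cells. Macrophage-like cells had more H2-Eb1 for each H2-Aa molecule counted (0.919 in Sham, 0.894 in TBI) than dendritic-like (0.804 and 0.775) or B-like cells (0.697 and 0.70), with separate intervals in both libraries.

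H2-Eb2 had a cell distribution of its own. Migratory dendritic-like cells held 44 of its 112 UMIs in Sham and 44 of its 114 in TBI, although they were 1.17% and 0.795% of the cells. Their level was 236 CPM in Sham (172 to 317) and 209 in TBI (152 to 280), and 41.7% and 56.7% of the 24 and 30 cells carried a UMI. B-like cells, a larger class, held more of the UMIs (58 in Sham and 47 in TBI) at a lower level of 52.5 and 57.8 CPM. Dendritic-like cells had 5.12 and 9.24 CPM from 7 and 15 UMIs, and macrophage-like cells had 2 UMIs in each library. The removed barcodes dominated by hemoglobin, taken here as a gauge of free RNA, held 0 UMIs of H2-Eb2 in both libraries. H2-Eb2 thus differed from its neighbour H2-Eb1, of which migratory dendritic-like cells held 3.52% and 1.63% of the UMIs. The nearest other genes across classes were Il4i1 (Pearson r = 0.96), Ccr7 (0.90) and Il12b (0.85), over 36 points from 18 classes in 2 libraries. These r values are a description, since the points share libraries and depth and 1 class sets the pattern.

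Cd74, the invariant chain, was found in nearly every dendritic-like cell (97.9% in Sham and 95.6% in TBI). It was found in 82.8% and 93.6% of macrophage-like cells and in 97.8% and 99.7% of B-like cells. Its level was 48327 and 52389 CPM in dendritic-like cells, 38281 and 41663 in macrophage-like cells, and 25667 and 27085 in B-like cells. B-like cells therefore stood far closer to macrophages for Cd74 than for H2-Aa, H2-Ab1 and H2-Eb1. The number of Cd74 UMIs counted for each H2-Aa UMI was 7.54 (7.28 to 7.80) in Sham and 7.67 (7.38 to 7.98) in TBI in B-like cells. It was 3.17 and 3.25 in dendritic-like cells, 3.22 and 3.46 in macrophage-like cells, and 2.68 and 2.27 in migratory dendritic-like cells. No such ratio is read in immature B-like cells, where H2-Aa had only 33 and 55 UMIs and its CPM was not above that of the hemoglobin barcodes. Cd74 was found in 60.2% and 73.5% of immature B-like cells, and in 51.2% (40.04 to 62.3) and 48.1% (38.4 to 58.0) of them at 1000 UMIs per cell. The hemoglobin barcodes, not thinned, had it in 26.2% (22.6 to 29.998) and 38.9% (34.0 to 43.9), so that the intervals overlapped in TBI. Of the class II UMIs of immature B-like cells, 12 of 93 Sham cells held 68.1% and 7 of 117 TBI cells held 38.9%.

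The excess of Cd74 over H2-Aa separated the B-like cells from each other. A subcluster led by Pglyrp1 (118 Sham and 89 TBI cells) had 6769 and 6760 CPM of H2-Aa and 4.61 and 4.71 Cd74 UMIs for each of H2-Aa. A subcluster led by Gm37065 (153 and 102 cells), with Vpreb3 among its leading genes, had 1434 and 1620 CPM of H2-Aa and 15.5 and 14.2 Cd74 UMIs for each. Cd74 itself differed less between them, at 31207 and 31841 CPM against 22298 and 22976. The Pglyrp1-led cells also had more H2-Ob (684 and 691 against 231 and 262 CPM) and more H2-Eb2 (108 and 141 against 24.6 and 15.2 CPM). The Sham and TBI values lay close together within each subcluster, so the contrast between the B subclusters was seen in both libraries.

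The peptide editors divided by cell type. H2-DMa, the shared alpha chain, stood at 1170 and 1162 CPM in dendritic-like cells, 675 and 691 in macrophage-like cells and 384 and 325 in B-like cells. The beta chains went separate ways. H2-DMb1 was at 1235 and 1237 CPM in dendritic-like cells and 827 and 848 in macrophage-like cells, but at only 64.3 and 78.8 in B-like cells. H2-DMb2 was at 725 and 612 CPM in B-like cells, 400 and 362 in dendritic-like cells, and 28.9 and 14.4 in macrophage-like cells.

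Put as a share, H2-DMb2 made up 91.9% (89.8 to 93.6) of the UMIs of both DM beta genes in Sham B-like cells and 88.6% (85.7 to 91.1) in TBI B-like cells. The share was 86.4% and 81.2% in immature B-like cells, 24.5% and 22.6% in dendritic-like cells, 13.3% and 17.2% in plasmacytoid dendritic-like cells, and 3.37% and 1.67% in macrophage-like cells. Within the dendritic-like class, the Xcr1-led subcluster with type 1 markers had 9.73% (5.87 to 14.9) and 13.5% (10.7 to 16.8), below the Cd209b-led subcluster, which has the macrophage marker Adgre1 among its leading genes, at 24.2% (21.5 to 27.0) and 22.2% (19.8 to 24.7). Migratory dendritic-like cells had 66.1% (53.0 to 77.7) in Sham and 34.1% (20.5 to 49.9) in TBI, from 41 and 15 UMIs of H2-DMb2. The windows of H2-DMb1 and H2-DMb2 printed above are alike at most positions, and of these 2 only the first holds the X box letters. Those letters are also in the window of H2-Ob, a gene highest in B-like cells, and not in those of H2-Aa, H2-Eb1 and H2-Eb2. Near matches to these letters were not searched, and any link between the letters and the cells that carried a gene was not tested.

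**Figure D2:**
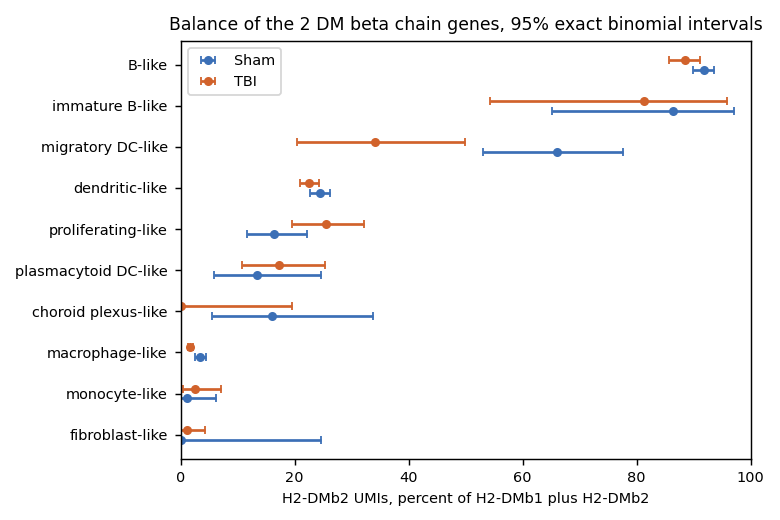
The share of H2-DMb2 among the UMIs of H2-DMb1 and H2-DMb2 (percent) is plotted for each class with at least 10 such UMIs in both libraries, Sham in blue and TBI in orange, with exact 95% binomial intervals. B-like cells sit at 91.9% and 88.6%, dendritic-like cells at 24.5% and 22.6% and macrophage-like cells at 3.37% and 1.67%.

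H2-Ob, the beta chain of the H2-DM inhibitor, followed the B lineage. Its level was 403 and 420 CPM in B-like cells, 133 and 176 in dendritic-like cells, 97.9 and 180 in immature B-like cells and 16.4 and 12.4 in macrophage-like cells. The pattern of H2-Ob across classes was nearest to that of H2-DMb2 among the 10 genes (r = 0.89). Outside them the nearest were Tnfrsf13c, the receptor for the B cell survival factor BAFF (0.86), Wdfy4 (0.84) and Siglecg (0.83). H2-Oa, the alpha chain partner of H2-Ob, stood at 257 and 241 CPM in B-like cells and 295 and 332 in dendritic-like cells. H2-Oa was also at 145 and 141 CPM in the class marked by Il1rl1 and Gata3 (ILC2-like or Th2-like cells), where H2-Ob had 0 UMIs in both libraries, which allows up to 10.6 and 8.48 CPM (3 UMIs of the class total). The chains of H2-DO were therefore not carried by the same set of classes.

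Ciita, the regulator, was counted at low levels. It stood at 203 and 221 CPM in dendritic-like cells, 84.6 and 87.8 in macrophage-like cells and 70.6 and 72.6 in B-like cells, which overlapped with macrophage-like cells in their intervals. Across 36 class and library points it ran with the mean of H2-Aa, H2-Ab1, H2-Eb1 and Cd74 at r = 0.91. H2-DMa (0.91) and H2-DMb1 (0.88) were as near to that mean, while H2-DMb2 (0.70), H2-Ob (0.58) and H2-Eb2 (0.43) were farther from it. Among the 11704 other genes compared, the nearest to the mean were Ctss, the protease that trims the invariant chain (0.91), Ly86 (0.90), Fgd2 (0.86), Ifi30, the lysosomal thiol reductase (0.85), and Pld4 (0.85). After them came Irf5 and Slamf9 (both 0.83), Ctsc (0.81), Gdi2 (0.80) and Phf11b (0.79). Ciita, which was kept out of the clustering, was among the leading genes of an unnamed cluster led by F630028O10Rik (46 Sham and 100 TBI cells). That shallow cluster, outside the 19 classes, had 30478 and 22945 CPM of the 10 genes.

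The classes that supplied the class II transcripts had different shares in the 2 libraries. Macrophage-like cells gave 35.8% of all UMIs of the 10 genes in Sham and 52.6% in TBI. Dendritic-like cells gave 40.9% and 31.5%, and B-like cells 12.9% and 6.13%. Together these 3 classes gave 89.6% and 90.2%, from 40.9% and 32.0% of the cells. Macrophage-like cells were 16.2% of Sham and 19.0% of TBI cells, dendritic-like cells 7.0% and 5.41%, and B-like cells 17.7% and 7.63%. Whether these shares of cells differ between mice cannot be told from 1 pool per group.

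The genes carried most by B-like cells were lower over the TBI library as a whole. H2-DMb2 was at 192 CPM over all filtered Sham cells and 92.3 over all TBI cells, a log2 ratio of -1.06 (-1.17 to -0.95). H2-Ob went from 91.1 to 57.2 CPM (log2 ratio -0.67) and H2-Eb2 from 14.2 to 8.18 CPM (-0.80). Within B-like cells the same ratios were -0.24 for H2-DMb2 (-0.41 to -0.08), 0.06 for H2-Ob (-0.15 to 0.27) and 0.14 for H2-Eb2 (-0.45 to 0.72). B-like cells held 52.9% of H2-DMb2 UMIs in Sham and 38.6% in TBI, and 62.1% and 42.7% of those of H2-Ob.

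**Figure D3:**
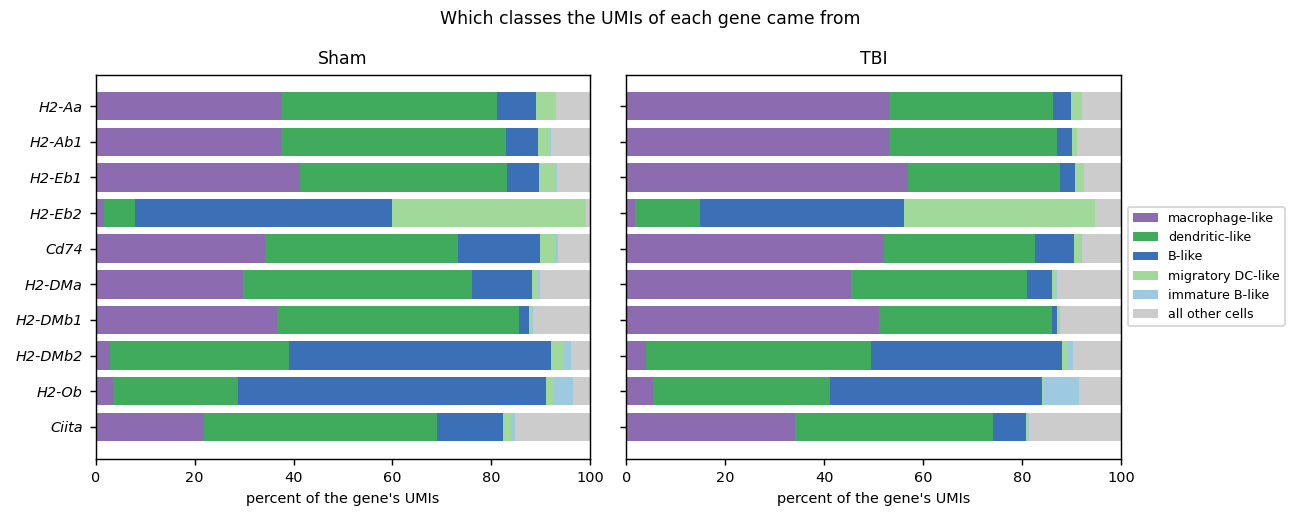
Stacked bars give the percent of each gene's UMIs that came from each class, in the Sham library (left) and the TBI library (right). Macrophage-like cells supply 37.7% of H2-Aa UMIs in Sham and 53.0% in TBI, while B-like cells supply 62.1% and 42.7% of H2-Ob.

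Levels within the leading classes differed little between TBI and Sham. Over all 10 genes, macrophage-like cells had 70585 CPM in Sham and 73016 in TBI, a log2 ratio of 0.05 (0.04 to 0.06). Dendritic-like cells had 89687 and 93599 CPM (0.06, 0.05 to 0.07) and B-like cells 35061 and 36407 CPM (0.05, 0.03 to 0.08). Ratios of this size are beyond counting error, but no spread between mice is known to set them against. With every macrophage-like cell given equal weight, in place of summed UMIs, the ratio was 0.29.

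Gene by gene, macrophage-like cells had 0 of the 9 genes with at least 10 UMIs higher in TBI by 1.5-fold or more, beside 9.87% of the 10810 genes with that many UMIs. H2-DMb2 was the 1 gene lower by that much, beside 6.75% of genes. H2-Aa had a log2 ratio of 0.02 (-0.01 to 0.04), H2-Eb1 of -0.02 (-0.05 to 0.01) and Cd74 of 0.12 (0.11 to 0.14). H2-DMa (0.03), H2-DMb1 (0.04) and Ciita (0.05) had intervals that held 0, as had H2-Ob (-0.42, -1.15 to 0.37). The median over the 9 genes was 0.02 and that over all genes tested was 0.02.

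H2-DMb2 in macrophage-like cells stood at 44 UMIs (28.9 CPM) in Sham and 50 UMIs (14.4 CPM) in TBI, a log2 ratio of -1.01 (-1.62 to -0.39). The cluster led by Cx3cr1 held 42 and 36 of these UMIs (51.7 and 21.7 CPM) and the one led by Folr2 held 2 and 12. In the Cx3cr1-led cluster H2-Oa was at 45.6 and 14.5 CPM. The 12 dendritic markers, which share no gene with the macrophage markers, summed to 2314 and 2072 CPM in that cluster, none was at 0 in either library, and 1 of 12 was higher in TBI. Their part in the H2-DMb2 ratio was not tested. With each cell given equal weight the macrophage-like ratio was 0.03, so the direction rests on how cells are weighted.

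H2-Ab1 was the I-A gene with the lower value in TBI in each leading class. The log2 ratio was -0.19 (-0.22 to -0.16) in macrophage-like cells, -0.18 (-0.21 to -0.15) in dendritic-like cells and -0.13 (-0.23 to -0.03) in B-like cells. The B subclusters differed in direction. The log2 ratio was -0.31 in the one led by Gm37065 and -0.23 in the one led by Pglyrp1. It was 0.22 (-0.04 to 0.48) in the one led by Relt and 0.87 (0.41 to 1.37) in the one led by Gm26917 (40 and 25 cells). With each cell given equal weight it was 0.07 in macrophage-like cells. Set against its partner chain in the same cells, H2-Ab1 was also lower in TBI, with 0.663 H2-Ab1 UMIs for each H2-Aa in Sham macrophage-like cells (0.648 to 0.679) and 0.574 in TBI (0.565 to 0.584). The ratio was 0.70 and 0.584 in dendritic-like cells, 0.562 and 0.496 in B-like cells and 0.379 and 0.221 in migratory dendritic-like cells. It was not lower in TBI in plasmacytoid dendritic-like cells, at 0.503 (0.421 to 0.599) and 0.584 (0.524 to 0.650), or in an unnamed cluster led by F630028O10Rik, at 0.789 (0.666 to 0.934) and 1.06 (0.914 to 1.22). The values all come from the same 2 libraries, so that a property of a library and of its cells cannot be told apart.

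Dendritic-like cells had 1 of the 10 genes higher in TBI by at least 1.5-fold, beside 11.1% of the 9627 genes tested, and 0 lower, beside 7.98%. The gene was H2-Eb2, whose 7 and 15 UMIs gave a log2 ratio of 0.80 with an interval (-0.53 to 2.39) that held 0. H2-Ob was at 182 and 286 UMIs (0.40, 0.13 to 0.68), H2-Aa had 0.08 (0.05 to 0.11) and Cd74 0.12 (0.10 to 0.13). H2-DMa (-0.01), H2-DMb1 (0.00), H2-DMb2 (-0.15) and Ciita (0.12) had intervals that held 0. The type 1 markers summed to 880 CPM in Sham and 1344 in TBI in this class, with 10 of 10 higher in TBI, and the Xcr1-led cells that carry them, with 226 and 314 CPM of H2-Ob against 105 and 108 in the Cd209b-led cells, were 14 of 143 and 38 of 204 cells. Their part in the H2-Ob value was not tested.

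B-like cells had 0 of the 10 genes higher by at least 1.5-fold, beside 11.4% of the 8989 genes tested, and 0 lower, beside 9.92%. H2-DMa had a log2 ratio of -0.24 (-0.47 to -0.01) and H2-DMb2 of -0.24, and Cd74 had 0.08 (0.05 to 0.10). H2-DMb1, at 71 and 64 UMIs, had 0.29 with an interval that held 0 (-0.22 to 0.80). The 17 macrophage markers summed to 205 CPM in Sham B-like cells and 570 in TBI B-like cells, with 16 of 17 higher in TBI and Lyve1 at 0 in both, and their part in the H2-DMb1 value was not tested.

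**Figure D4:**
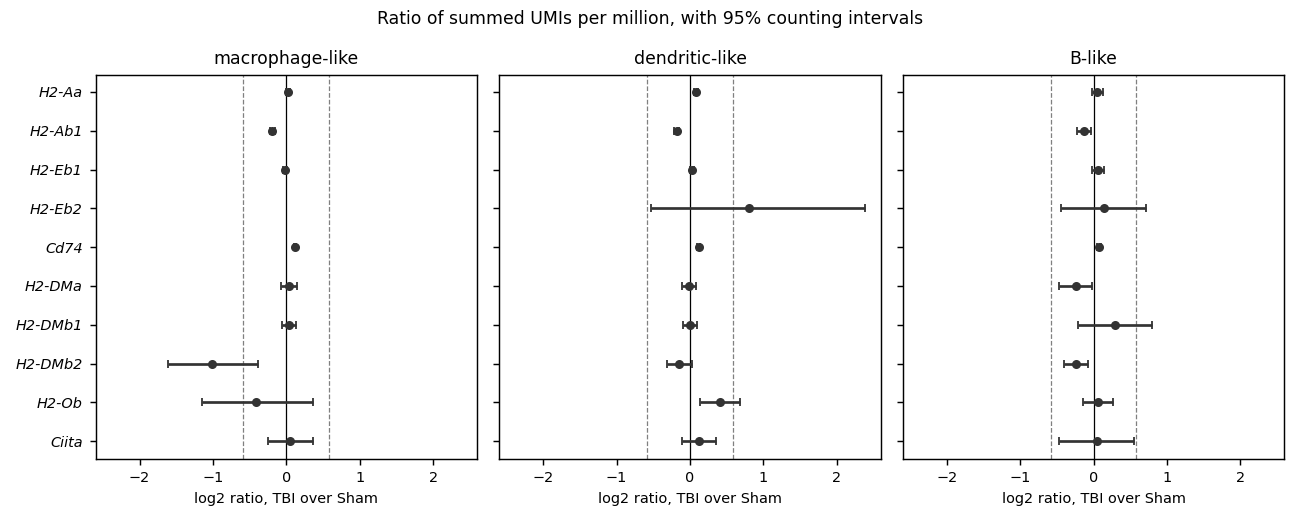
Points give the log2 ratio of TBI over Sham for each gene with at least 10 UMIs in macrophage-like, dendritic-like and B-like cells, bars the 95% counting interval, and dashed lines 1.5-fold in either direction. H2-Ab1 lies left of 0 in each panel (-0.19, -0.18 and -0.13), and H2-DMb2 in macrophage-like cells (-1.01) and H2-Eb2 in dendritic-like cells (0.80) are past a dashed line.

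The macrophage-like class was made of 3 clusters with very unequal levels. The cluster led by Cx3cr1, which has Trem2 and Ctss among its leading genes, had 101026 CPM of the 10 genes in Sham and 101271 in TBI (log2 ratio 0.00, -0.01 to 0.02). H2-Eb1, which was kept out of the clustering, was also among its leading genes. The cluster led by Folr2, with Pf4, Cbr2 and Fcrls, had 38322 and 48148 CPM (0.33, 0.31 to 0.35). The cluster led by Ccl8 was shallow, with a median of 806 and 982 UMIs per cell, and had 21430 and 36943 CPM (0.79, 0.71 to 0.86). Its top 150 genes held 15 macrophage markers and also 4 markers of erythroid cells.

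The clusters also took different shares of the class. The Folr2-led cluster was 36.9% (31.6 to 42.3) of Sham macrophage-like cells and 45.5% (41.8 to 49.2) of TBI ones, the Cx3cr1-led cluster 32.0% and 37.9%, and the Ccl8-led cluster 31.1% (26.2 to 36.4) and 16.6% (13.9 to 19.5). The Cx3cr1-led cells supplied 76.2% of the class's class II UMIs in Sham and 66.3% in TBI. The small ratio over the class thus combined clusters with ratios between 0.00 and 0.79.

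In the Folr2-led cluster the classical genes were higher in TBI, with log2 ratios of 0.32 (0.27 to 0.37) for H2-Aa, 0.28 (0.22 to 0.33) for H2-Eb1 and 0.40 (0.37 to 0.43) for Cd74. H2-Ab1 was at 0.07 (0.01 to 0.14), H2-DMa at 0.03 (-0.16 to 0.22) and Ciita, at 20 and 77 UMIs, at 0.48 (-0.22 to 1.29). The cells spread widely. Among Folr2-led cells with at least 1000 UMIs, the 10 genes made up a median of 1.09% of a cell's UMIs in Sham and 3.79% in TBI, and they made up less than 1% in 49.6% (40.1 to 59.0) of 115 Sham cells and 32.8% (27.6 to 38.3) of 314 TBI cells. Both libraries thus held Folr2-led cells with hardly any class II transcript beside cells at the level of the Cx3cr1-led ones, since the 95th percentile was 10.9% and 11.3%. The log2 ratio was 0.34 without predicted doublets and 0.46 with cells given equal weight. In the same cluster the 12 B cell markers summed to 426 CPM in Sham and 584 in TBI, with 10 of 12 higher in TBI, and Cd79a and Ms4a1 were at 0 in Sham. The 12 dendritic markers summed to 2067 and 2139 CPM, with 6 of 12 higher in TBI, and Flt3 was at 0 in Sham. The 10 type 1 dendritic markers summed to 115 and 135 CPM from 70 and 223 UMIs, with 6 of 10 higher in TBI. Other lists were lower in TBI. The 17 macrophage markers summed to 70324 and 60966 CPM, with 4 of 17 higher in TBI, and the 12 monocyte markers to 738 and 345 CPM, with 3 of 12 higher. The part of these in the ratio was not tested.

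In the Cx3cr1-led cluster the median was 10.5% of a cell's UMIs in Sham and 10.9% in TBI, and less than 1% was seen in 2.97% and 1.95% of cells. H2-Aa (-0.04), H2-Eb1 (-0.06) and Cd74 (0.08) hardly differed there. In the Ccl8-led cluster the median was 0.511% and 1.26%, over 35 and 59 cells with at least 1000 UMIs, and the log2 ratio was 0.68 without predicted doublets. The 12 B cell markers summed to 492 CPM in Sham and 870 in TBI in this cluster, with 7 of 12 higher in TBI and 4 at 0 in each library. The 12 dendritic markers summed to 915 and 965 CPM, with 8 of 12 higher in TBI. The 17 macrophage markers summed to 42083 and 41981 CPM, with 8 of 17 higher. Migratory dendritic markers summed to 39.4 and 101 CPM from 4 and 16 UMIs (Ccr7 and Ccl22 at 0 in both), monocyte markers to 158 and 265 CPM, and type 1 dendritic markers to 78.8 and 120 CPM from 8 and 19 UMIs (Xcr1 at 0 in both). Their part in the ratio was not tested.

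**Figure D5:**
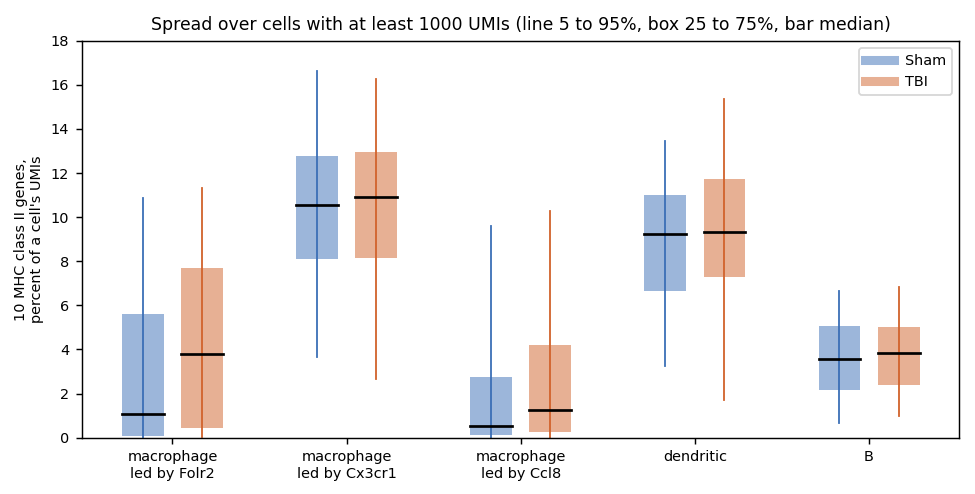
The percent of a cell's UMIs taken by the 10 genes is summarised over cells with at least 1000 UMIs, with the line from the 5th to the 95th percentile, the box from the 25th to the 75th and the bar at the median, Sham in blue and TBI in orange. The median of Folr2-led cells is 1.09% in Sham and 3.79% in TBI, that of Cx3cr1-led cells 10.5% and 10.9%, and that of dendritic-like cells 9.22% and 9.32%.

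The share of macrophage-like cells with a UMI of H2-Aa was 71.0% in Sham and 81.6% in TBI. With every cell thinned to 1000 UMIs, which left out 80 and 87 shallower cells, it was 70.5% (64.5 to 76.1) and 81.0% (77.7 to 83.9). For comparison, the thinned share in T-like cells, which should lack the gene in mice, was 1.69% and 5.91%. The median depth was 2973 and 4414 UMIs in macrophage-like cells and 3376 and 3221 in T-like cells. Dendritic-like cells had thinned shares of 97.7% and 95.7% and B-like cells of 67.6% and 71.9%, with overlapping intervals between the libraries in both classes.

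The other dendritic classes were smaller. Migratory dendritic-like cells had 50893 CPM of the 10 genes in 24 Sham cells and 34684 in 30 TBI cells (log2 ratio -0.55), with 59.7% and 57.0% of these UMIs in 5 cells. Plasmacytoid dendritic-like cells had 17258 CPM in 20 cells and 21987 in 45 cells (0.35). In the dendritic-like class, the Cd209b-led subcluster had 100694 and 109491 CPM (0.12, 0.10 to 0.14) and the Xcr1-led subcluster 79048 and 79416 CPM (0.01, -0.02 to 0.04). An unnamed subcluster led by Ifitm1 (55 and 64 cells) had 82535 and 77059 CPM (-0.10, -0.12 to -0.08). Another led by Ccl5, with C1qb and C1qc among its leading genes, had 80962 CPM in 18 cells and 115528 in 26 cells (0.51, 0.46 to 0.56), with median depths of 1419 and 5427 UMIs.

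Class II UMIs were also counted in cells that are not professional antigen-presenting cells, and in several of these classes few cells held most of them. T-like cells had 584 CPM of the 10 genes in Sham and 5584 in TBI. In TBI, 6 of 227 T-like cells had more than 1% of their UMIs on the 10 genes and held 91.4% of the class's class II UMIs, and all 6 were predicted doublets. Without them the level was 519 CPM, against 133 in Sham without the 2 such cells there. Fibroblast-like cells had 295 CPM in 67 Sham cells, 0 of them above 1%, and 2254 in 448 TBI cells, of which 8 cells, 6 of them predicted doublets, held 68.1%, and the level without these was 745. Endothelial-like cells had 397 and 1228 CPM, with 0 of 309 Sham cells above 1%, 9 of 579 TBI cells holding 47.0%, and 667 CPM without these. In ILC2-like or Th2-like cells 1 cell in each library held 46.9% and 36.0%, and 0 neutrophil-like cells were above 1% in either library. NK-like cells in TBI had 94.9% of their class II UMIs in 3 of 90 cells, and pineal-like cells 94.0% in 2 of 90.

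The levels left in such cells can be set beside the removed barcodes with more than 50% hemoglobin UMIs, which are taken as droplets with a red cell and free RNA. These held 1117 CPM (1001 to 1242) of the 10 genes in Sham and 2290 (2063 to 2534) in TBI, scaled to the UMIs other than hemoglobin, over 562 and 391 barcodes. Neutrophil-like cells had 108 CPM (35.2 to 253) and 194 CPM (115 to 307), with overlapping intervals. Without the cells above 1%, the CPM of T-like, fibroblast-like and endothelial-like cells given above was below that of the hemoglobin barcodes of the same library. This order cannot show a lack of expression, since a cell's total includes its own RNA. In UMIs per droplet, the barcodes held 0.601 in Sham and 0.957 in TBI. Without the cells above 1%, T-like cells held 0.467 and 1.90 and fibroblast-like cells 1.18 and 2.68. Endothelial-like cells held 0.793 and 1.51. The thinned share of cells with Cd74 was 5.08% in Sham and 18.7% in TBI T-like cells. It was 12.0% and 20.8% in fibroblast-like cells and 14.6% and 21.5% in endothelial-like cells. All were below the 26.2% and 38.9% of hemoglobin barcodes with a Cd74 UMI (median depths of 2119 and 1402 UMIs, hemoglobin included). Those barcodes were not thinned. Without thinning the shares were 11.8% and 33.5% in T-like, 28.4% and 38.8% in fibroblast-like and 18.8% and 35.8% in endothelial-like cells. In Sham fibroblast-like cells the share was then above that of the barcodes. Shares at or below that background are not read as expression, nor as a lack of it. Single genes did not all follow the sum. In fibroblast-like cells H2-DMb1 was at 48.5 and 99.4 CPM, against 6.61 and 42.9 in the hemoglobin barcodes. A UMI of H2-DMb1 was in 16.4% and 21.7% of these cells and in 0.356% and 1.79% of the barcodes. H2-DMa was at 33.6 and 57.9 CPM in fibroblast-like cells and at 31.4 and 84.2 in T-like cells, predicted doublets included, against 6.61 and 0 in the barcodes. In endothelial-like cells H2-DMb1 was below the barcodes in CPM, at 4.87 and 14.4.

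The other genes of the pathway were counted from a fixed list by role. Over all genes tested in macrophage-like cells, 9.87% were higher and 6.75% lower in TBI by 1.5-fold or more. Beside such shares, the small counts here and in the next paragraph are not read as a result about a role. In macrophage-like cells 0 of 10 invariant chain proteases and lysosomal enzymes passed 1.5-fold in either direction. Ctss had a log2 ratio of 0.00 (-0.05 to 0.06), while Ctsb, a lysosomal cysteine protease, had 0.19 (0.14 to 0.24) and Ifi30 -0.38 (-0.49 to -0.26), the ends of the group. Of 12 transcription factors of the class II genes 0 were higher and 1, Rfx5 of the RFX complex, was lower, at 16 and 15 UMIs (-1.28, -2.40 to -0.17), while Irf1 had 0.35 (0.06 to 0.66). Of 6 genes of turnover and trafficking 0 passed. March1, a ubiquitin ligase that removes class II from the surface, had -0.42 (-0.78 to -0.05), and Rab7, of late endosomes, had 0.27 (0.07 to 0.48). Of 6 measured co-stimulation genes 1 was higher, Cd80 at 15 and 58 UMIs (0.73, -0.08 to 1.69), and 0 lower, while Cd86 had -0.19 (-0.45 to 0.09). Of the 4 genes of the interferon-gamma receptor and its kinases, the 3 genes for the ligand and co-receptors of Cd74 and the 2 receptors of class II on T cells, 0 passed in either direction. H2-Oa, the 1 measured class II locus partner, was lower in macrophage-like cells, at 26.2 CPM in Sham and 8.06 in TBI (log2 ratio -1.70).

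Over all genes tested in dendritic-like cells, 11.1% were higher and 7.98% lower by that much. Among the listed genes 0 of 10 proteases passed in either direction there, and 2 of 12 transcription factors were higher. These were Irf8, a factor of the type 1 lineage, at 284 and 484 CPM (0.77, 0.59 to 0.95), and Irf1 at 52.6 and 81.9 CPM (0.63, 0.21 to 1.07). Of 5 measured genes of turnover and trafficking 1 was higher, the tetraspanin Cd63 at 3 and 34 UMIs (3.05, 1.59 to 5.60), and of the 2 receptors of class II 1, Cd4 at 3 and 7 UMIs (0.85, -1.16 to 3.56). In B-like cells the shares over all genes tested were 11.4% higher and 9.92% lower. Of 10 proteases and inhibitors 1 was higher there, Cst3, the cathepsin inhibitor cystatin C, at 366 and 598 CPM (0.71, 0.52 to 0.90). Co-stimulation genes higher there were 2 of 6, Cd83, which protects class II from March1, with 95.02 and 171 CPM (0.85, 0.47 to 1.23), and Pdcd1lg2 at 8 and 11 UMIs. Of 12 transcription factors 2 were higher, the RFX subunits Rfxap (12 and 18 UMIs) and Rfxank (18 and 22 UMIs), both with intervals that held 0. Cd63 was higher there too, at 2 and 27 UMIs (3.90, 2.21 to 7.32), as was Cd44, a co-receptor of Cd74, at 22 and 26 UMIs, and Jak2 was lower at 25 and 10 UMIs. The macrophage markers in TBI B-like cells given above, and the larger number of type 1 marker UMIs in TBI dendritic-like cells, moved with these values, and their part was not tested.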

How the data were processed

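The meninges of 5 Sham mice were pooled into 1 library and those of 5 TBI mice into another. The authors loaded approximately 4000 cells per library with the 3′ v2 chemistry of 10x Genomics and deposited raw UMI counts per gene and barcode, aligned to mm10 with Cell Ranger. The version of Cell Ranger is 2.1.1 in the submitters' processing notes and 3.1.0 in the matrix header, and the study's methods name another. No source used here gives the annotation release. The submitters' notes also list Seurat 3.9.9 and DESeq2 1.30.0, neither of which was used here.

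The files held 2699 Sham and 4349 TBI barcodes (9527334 and 15011079 UMIs). Following the study's limits, barcodes with 150 to 5000 genes, at most 20% mitochondrial and at most 5% hemoglobin UMIs were kept. This left 2043 and 3773 cells. The files held more barcodes than the study states before its filter, and slightly fewer cells passed than it states. After scaling each cell to 10000 and taking log(1 + x), 2000 variable genes without the class II genes and 20 principal components were used, and cells were clustered with Leiden (leidenalg 0.10.2, 20 neighbours, resolution 0.8). Naming a cluster required 3 or more markers of a listed cell type within its top 150 genes by fold, and 2 clusters stayed unnamed. For doublets, cells were ranked by simulation, and the number called was preset from an assumed rate of 0.8% per 1000 cells (33 Sham and 114 TBI cells). The larger share of cells called in TBI thus follows from the number of cells. Predicted doublets were kept in the values unless stated otherwise.

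For each class and library, the UMIs of all cells were added up. Log2 ratios used 0.5 added UMIs, with exact binomial intervals, and ratios and counts of genes past 1.5-fold used genes with 10 or more UMIs there. Levels carry exact Poisson and shares exact binomial 95% intervals (scipy 1.17.1), and the computation was tested on simulated data. All 10 member genes are named whatever their value. From the pathway roles the text names genes past 1.5-fold in the leading classes. The ends in macrophage-like cells are named for the roles of proteases, transcription, turnover and co-stimulation only. The nearest genes were ranked by Pearson r of log levels over classes with at least 15 cells. The members, lists and tests were chosen with earlier results of these data known. The study tested cells as replicates, which was not repeated here because cells of 1 pool are not replicates.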

Additional observations from a re-analysis of the deposited data

Results flagged for a closer look

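The barcodes that the hemoglobin limit removed lie outside every comparison of classes, and those with more than 50% hemoglobin UMIs still carried class II transcripts. The 10 genes together stood at 1117 CPM of the UMIs other than hemoglobin in the 562 Sham barcodes (1001 to 1242) and at 2290 in the 391 TBI barcodes (2063 to 2534), above the limit that a count of 0 allows in each library. Cd74 made up most of them, with 196 and 223 UMIs, followed by H2-Aa with 53 and 56 UMIs. H2-Eb2 had 0 UMIs in both, H2-DMb2 had 3 and 1, and H2-Ob had 1 and 0.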

How the results depend on the processing

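No paired analysis was possible because each group is 1 library. For the 10 genes summed in macrophage-like cells (log2 ratio 0.05), the ratio was 0.027 with a median-ratio size factor, 0.021 with a lower limit of 500 genes, 0.031 in cells with at least 1000 UMIs (chosen after seeing the data) and 0.29 as a mean over cells. In dendritic-like cells (0.06) it was 0.12 as a mean over cells, 0.042 without predicted doublets, 0.012 with no hemoglobin limit, 0.012 at resolution 0.4 and 0.094 with the class II genes kept in the clustering. In B-like cells (0.05) it was 0.11 as a mean over cells, 0.017 without doublets, 0.025 with no hemoglobin limit, 0.025 with the limit of 500 genes, -0.075 at resolution 0.4 and 0.000902 at resolution 1.6. As a mean over cells, H2-DMb2 (-1.01) and H2-Ab1 (-0.19) in macrophage-like cells turned to 0.029 and 0.07, and Cd74 in B-like cells (0.08) was -0.055 at resolution 0.4. The cause of these shifts was not tested. Of 300 single-gene ratios under alternatives, 259 stayed within the counting interval of the reported value. The sign was opposite in 24, in 3 of which, those just given, the reported interval lay clear of 0.

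The macrophage-like share of class II UMIs, 35.8% and 52.6%, was 35.5% and 52.4% with no hemoglobin limit and 36.8% and 53.3% without doublets. Counts of genes past the fold in macrophage-like cells (1067 higher, 730 lower) were 450 and 229 at a fold of 2, which is stricter, and 2361 and 2028 with no minimum of UMIs, which tests more genes. The thinned TBI share of macrophage-like cells with H2-Aa, 81.0%, was 75.2% when 2 UMIs were required. Depth limits H2-Eb2, with 112 and 114 UMIs in all, and H2-DMb2 in macrophage-like cells, with 44 and 50, and no setting stands in for the spread between mice.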
